A study of Rattus norvegicus with 27 samples.

Results

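The comparison described here sets the hearts of rats that breathed coarse or ultrafine particles against those of rats that breathed filtered air or fine particles. All 27 arrays of the series enter it, 14 in the first pool and 13 in the second. The first pool holds 6 coarse and 8 ultrafine arrays, and the second holds 7 filtered air and 6 fine arrays. The animals were male Fisher 344 rats, 4 weeks old when the exposure began, and all groups shared an exposure lasting 3 months. The filtered air rats were the controls, and each array was taken as 1 rat, since nothing in the labels says otherwise. Total RNA of each heart was hybridised to an Illumina bead array of 22226 probes, and of 32 arrays hybridised the authors had removed 5 with poor signal. The labels give no extraction, hybridisation or scan batch, so a batch and a group cannot be told apart here. The pools were chosen by an earlier result on these same levels, a response seen with coarse and ultrafine particles and not with fine ones. Differences between the pools are therefore given as a description of which genes carried that response and by how much, with no test. A gene is called where limma's adjusted p is under 0.05, and here the word only marks and ranks genes.

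A heart draws most of its energy from fatty acids and covers the rest with glucose and lactate, and the balance shifts with hormones, feeding and workload. Pyruvate dehydrogenase is the gate through which glucose carbon enters the mitochondrial cycle, and its kinases close that gate while its phosphatases open it. PPAR-alpha, a nuclear receptor that binds fatty acids, drives genes of fatty acid uptake and oxidation together with the kinase gene Pdk4, while the transporter GLUT4, encoded by Slc2a4, carries glucose into muscle in response to insulin. Inhaled particles deposit in different regions of the airways according to their size.

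Across the pools, the genes that were higher with coarse and ultrafine particles were led by Pdk4 and held further genes of fat use, and those that were lower held the glucose transporter gene Slc2a4 and genes of the muscle cytoskeleton. With all 27 arrays, 52 of 11657 probes were called (0.446%), 27 of them higher (0.232%) and 25 lower (0.214%) with coarse and ultrafine particles. Since the pools were chosen for this response, nothing is read from these shares, and leaving out 1 array moved the 52 to between 30 (without filtered air 3 or ultrafine 2) and 82 (without ultrafine 8). All 52 probes had the same sign in each of the 4 comparisons of 1 exposed group with 1 group of the other pool. These comparisons share arrays in pairs, and 5153 of all 11657 probes had 1 sign in all 4. A probe called between the pools is likely to do so by its selection, so nothing is read from this either.

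Of the 27 arrays, 9 stood apart by rules that did not use the pools. The thymocyte and lymphocyte list used for this was chosen with earlier results of these data known. On 8 of the 9 arrays the mean of 19 thymocyte and lymphocyte genes exceeded the median array by more than 3 median absolute deviations. These were coarse 1, 2 and 5 and ultrafine 2 and 7, and in the other pool filtered air 1 and fine 2 and 4. Ultrafine 8 was the ninth, with a median correlation with the other arrays below the limit of 0.949, which coarse 1, ultrafine 2 and ultrafine 7 missed too. The thymocyte and lymphocyte mean spanned 5.98 to 9.11 in the coarse and ultrafine pool (median 6.23) and 6.11 to 8.18 in the filtered air and fine pool (median 6.20), on the log2 scale of the table. On the same arrays the mean of 22 sarcomere genes spanned 10.52 to 11.54 with coarse and ultrafine particles (median 11.33) and 11.26 to 11.53 with filtered air and fine particles (median 11.46). The lowest sarcomere means sat on exposed arrays with high thymocyte means, and the part of this mixture in the differences between pools was not tested. In heart tissue, fewer cells of a type and less RNA per cell cannot be told apart. Each result below is therefore also given for the 18 arrays that do not stand apart, 3 coarse and 5 ultrafine against 6 filtered air and 4 fine. On these 18 arrays Cd3d, a T cell receptor subunit, spanned 5.87 to 6.64 in the exposed pool and 5.96 to 7.29 in the other pool, and Dntt, a marker of immature thymocytes, stayed at 5.87 or less in both. Heart muscle markers were high on all arrays, with a median of 13.50 for Myh6, the alpha myosin heavy chain, in both pools and a lowest value of 12.25 on the 27, although the probe of Actc1, cardiac actin, gave only 6.18 to 7.43.

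**Figure D1:**
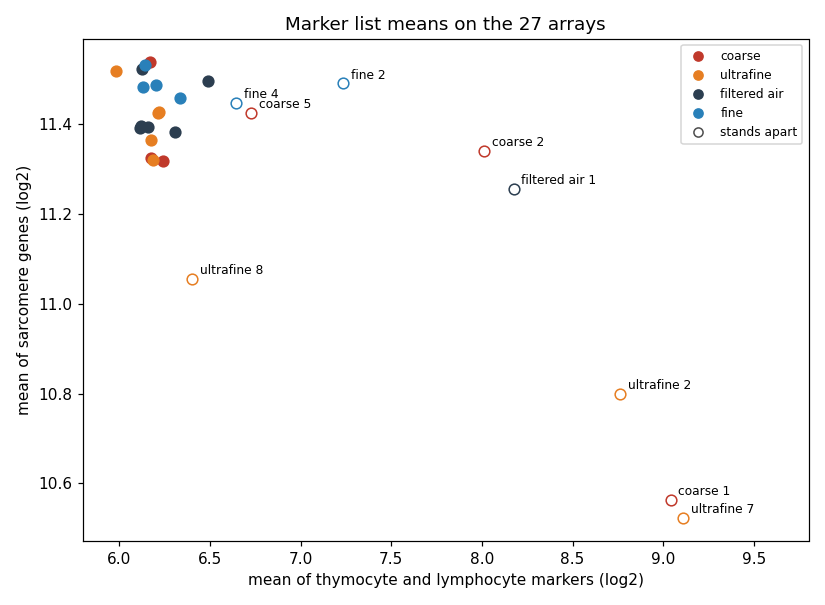
Mean log2 level of the thymocyte and lymphocyte list (horizontal axis) and of the sarcomere list (vertical axis) on each of the 27 arrays, coloured by group; open circles are the 9 arrays that stand apart. The 18 filled circles lie together at the upper left, with sarcomere means of 11.32 to 11.54 in coarse and ultrafine hearts and 11.38 to 11.53 in filtered air and fine hearts.

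On the 18 arrays, 131 probes were called (1.12%), 77 higher (0.661%) and 54 lower (0.463%) with coarse and ultrafine particles. Of these, 39 were also called with all 27 arrays. The 131 became 243 without ultrafine 5, which held high skeletal muscle and red cell marker means, and 273 without ultrafine 5 and coarse 6, a choice made after seeing the data, with 121 of the 131 called again. All 52 probes called with 27 arrays kept their sign on the 18, and 125 of the 131 had the same sign with 27. Over the 7952 named genes the median log2 difference was 0.0021 on the 18 arrays and -0.0028 on all 27. The arrays share 1 distribution of values by their normalization, so a shift of all genes could not be seen here. A gene symbol was given to 42 of the 52 called probes and to 107 of the 131.

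Pdk4, which phosphorylates and shuts the pyruvate dehydrogenase complex, had the largest difference of the named genes in both sets of arrays. On the 18 arrays its log2 level was 9.82, 9.78 and 9.01 in coarse hearts and 9.76, 9.27, 9.93, 9.12 and 10.15 in ultrafine hearts. In fine hearts it was 7.59, 8.03, 7.96 and 7.84, and in the 6 filtered air hearts it spanned 7.25 to 8.48 (median 7.73). Every one of the 8 exposed hearts lay above every one of the other 10. The difference between pools was 1.76 ± 0.17 (standard error), a 3.39-fold higher level, and with all 27 arrays it was 1.29 ± 0.24, with coarse 1 and ultrafine 7, which stand apart, at 7.94 and 7.25. Of the other pyruvate dehydrogenase genes, Pdp2, a phosphatase that reactivates the complex, was called lower with 27 arrays only, at 7.55 against 8.19 (medians), a difference of -0.58 ± 0.11. Without the arrays that stand apart Pdp2 differed by -0.43 ± 0.11 and was not called. The remaining 11 of the 13 measured genes of the complex, its kinases, its phosphatases and the mitochondrial pyruvate carrier were called in neither set, and their differences ran between -0.48 and 0.13 with 27 arrays. Their lowest value was that of Mpc1, a subunit of the pyruvate carrier, whose difference was -0.22 on the 18 arrays.

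The promoters of Pdk4, of Tuba8 and of Atcay are shown because Pdk4 led the genes that were higher and the other two were among the lowest and hold a motif of the set searched. Each is 300 bases, 250 before and 50 after the start, from RefSeq on GRCr8, with the motif found by the search in capitals.
Pdk4, chr4:34568280-34568579, minus strand, no motif of the set: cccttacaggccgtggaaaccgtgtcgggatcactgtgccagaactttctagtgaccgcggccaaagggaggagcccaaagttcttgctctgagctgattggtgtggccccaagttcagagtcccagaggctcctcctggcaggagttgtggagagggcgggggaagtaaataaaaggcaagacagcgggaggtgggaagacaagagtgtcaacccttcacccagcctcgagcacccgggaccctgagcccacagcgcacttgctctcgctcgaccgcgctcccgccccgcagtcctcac
Tuba8, chr4:156112022-156112321, plus strand, E-box in capitals: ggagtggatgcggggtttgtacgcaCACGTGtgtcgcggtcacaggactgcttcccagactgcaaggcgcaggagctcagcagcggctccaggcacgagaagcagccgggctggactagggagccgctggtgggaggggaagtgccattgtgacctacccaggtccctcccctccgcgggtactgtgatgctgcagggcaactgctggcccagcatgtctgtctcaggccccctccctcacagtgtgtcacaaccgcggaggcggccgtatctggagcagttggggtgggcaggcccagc
Atcay, chr7:9138235-9138534, plus strand, D-box in capitals: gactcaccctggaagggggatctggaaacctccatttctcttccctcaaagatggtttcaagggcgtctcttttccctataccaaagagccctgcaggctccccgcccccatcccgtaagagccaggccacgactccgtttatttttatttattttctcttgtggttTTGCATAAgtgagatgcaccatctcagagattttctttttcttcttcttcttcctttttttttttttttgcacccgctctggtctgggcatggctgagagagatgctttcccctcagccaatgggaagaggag
The E-box CACGTG, a site of clock and MondoA-type factors, starts 225 bases before the Tuba8 start, and the D-box (TTATG, any base, AA), a site of PAR bZIP factors, starts 83 bases before that of Atcay. Both strands of the windows were searched for these, for the FOXO site GTAAACA, for the PPAR repeat (AGGTCA, 1 base, AGGTCA) and for the glucocorticoid receptor palindrome (AGAACA, 3 bases, TGTTCT). For these counts the leading genes were sorted by the sign of their difference with all arrays. Scd2, named as lower without the arrays that stand apart, was thereby counted as higher. A window was found for 13 of the 19 genes counted as higher, Scd2 among them, and 11 of the 16 counted as lower. None of the 13 held any of the 5 motifs, and of the 11 the E-box was in Tuba8 and Fbxl22 and the D-box in Atcay and Esm1. Of all 33469 windows, 6.42% hold the E-box, 3.66% the D-box, 3.78% the FOXO site, 0.05% the PPAR repeat and 0.01% the receptor palindrome. These letters describe the windows and do not show a factor at work or absent.

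Several genes of fat use were called higher beside Pdk4. Of 31 measured genes of fatty acid oxidation and known PPAR targets, 9 were called higher and 0 lower on the 18 arrays, and 26 of the 31 differences were above 0, with a median of 0.22 beside 0.0021 over all genes. With all 27 arrays 3 of them were called higher and 0 lower, with 18 of 31 above 0 and a median of 0.08. The share of all genes called, to be set beside each list count, was 1.32% on the 18 arrays and 0.528% with 27. The list was put together with earlier results of these data known and holds Pdk4 and Angptl4, so its count is no independent evidence of a direction.

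Acot1, a cytosolic thioesterase that frees fatty acids from coenzyme A, was among them. It lay between 6.57 and 6.79 on the 8 exposed arrays (median 6.66) and between 5.90 and 6.27 on the other 10 (median 6.11), with no overlap. Its difference was 0.56 ± 0.05, and it was called with 27 arrays as well. Mlycd, malonyl-CoA decarboxylase, which removes the brake on fatty acid entry into mitochondria, was higher by 0.66 ± 0.11, at 10.43 against 9.67 (medians). Cpt1a, an isoform of the transferase that this brake acts on, was higher by 0.48 ± 0.09, while the muscle isoform Cpt1b differed by 0.14 and was not called. Among oxidation enzymes proper, Ech1, an auxiliary isomerase for unsaturated fatty acids, was called higher, at 12.83 against 12.28 (medians), a difference of 0.50. The fatty acid transporters Cd36 and Slc27a1 were called higher by 0.39 and 0.45, and the uncoupling protein gene Ucp3 by 0.45. The 22 members not called had differences between -0.10 and 0.46. With 27 arrays the called members were Pdk4, Acot1 and Angptl4, and Cd36 differed by -0.10, the opposite sign.

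Of 15 measured genes of lipolysis and the lipid droplet, 6 were called higher and 0 lower on the 18 arrays, with 12 of 15 above 0 and a median of 0.15. With 27 arrays 2 were called higher and 0 lower, 8 were above 0 and 7 below, and the median was 0.0005. Lipe, the hormone-sensitive lipase, was at 8.13, 8.20 and 8.11 in coarse and 8.11, 8.46, 8.54, 8.46 and 8.33 in ultrafine hearts, against 7.38, 7.72, 7.89 and 7.48 in fine hearts and 7.18 to 8.09 (median 7.37) in filtered air hearts. All 8 exposed values thus lay above the rest, the closest being filtered air 5 at 8.09. The Lipe difference was 0.78 ± 0.11, and that of Pnpla2, the lipase that starts triglyceride breakdown, was 0.57 ± 0.08, also with no overlap. Gpihbp1, which carries lipoprotein lipase to the capillary surface, spanned 7.08 to 7.96 with coarse and ultrafine particles and 6.66 to 6.86 with filtered air and fine particles on the 18 arrays. It was higher by 0.73 ± 0.08 there and by 0.50 ± 0.11 with 27 arrays, and was called in both, but the call with 27 held in only 7 of 27 fits that left out 1 array. Angptl4, a secreted inhibitor of the same lipase, was higher by 0.80 ± 0.13, with filtered air 5 at 6.09 above ultrafine 1 at 6.01. The lipid droplet coat gene Plin2 (0.29) and the glycerol channel gene Aqp7 (0.55) made up the 6. Lpl, the lipoprotein lipase gene itself, differed by -0.12 on the 18 arrays and was not called. Fat cells hold several of these genes too, and the mean of 12 adipocyte markers was 6.42 to 7.73 with coarse and ultrafine particles (median 6.85) and 6.46 to 8.18 with filtered air and fine particles (median 7.15) on the 18 arrays, and 0 of the 12 were called in either set.

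**Figure D2:**
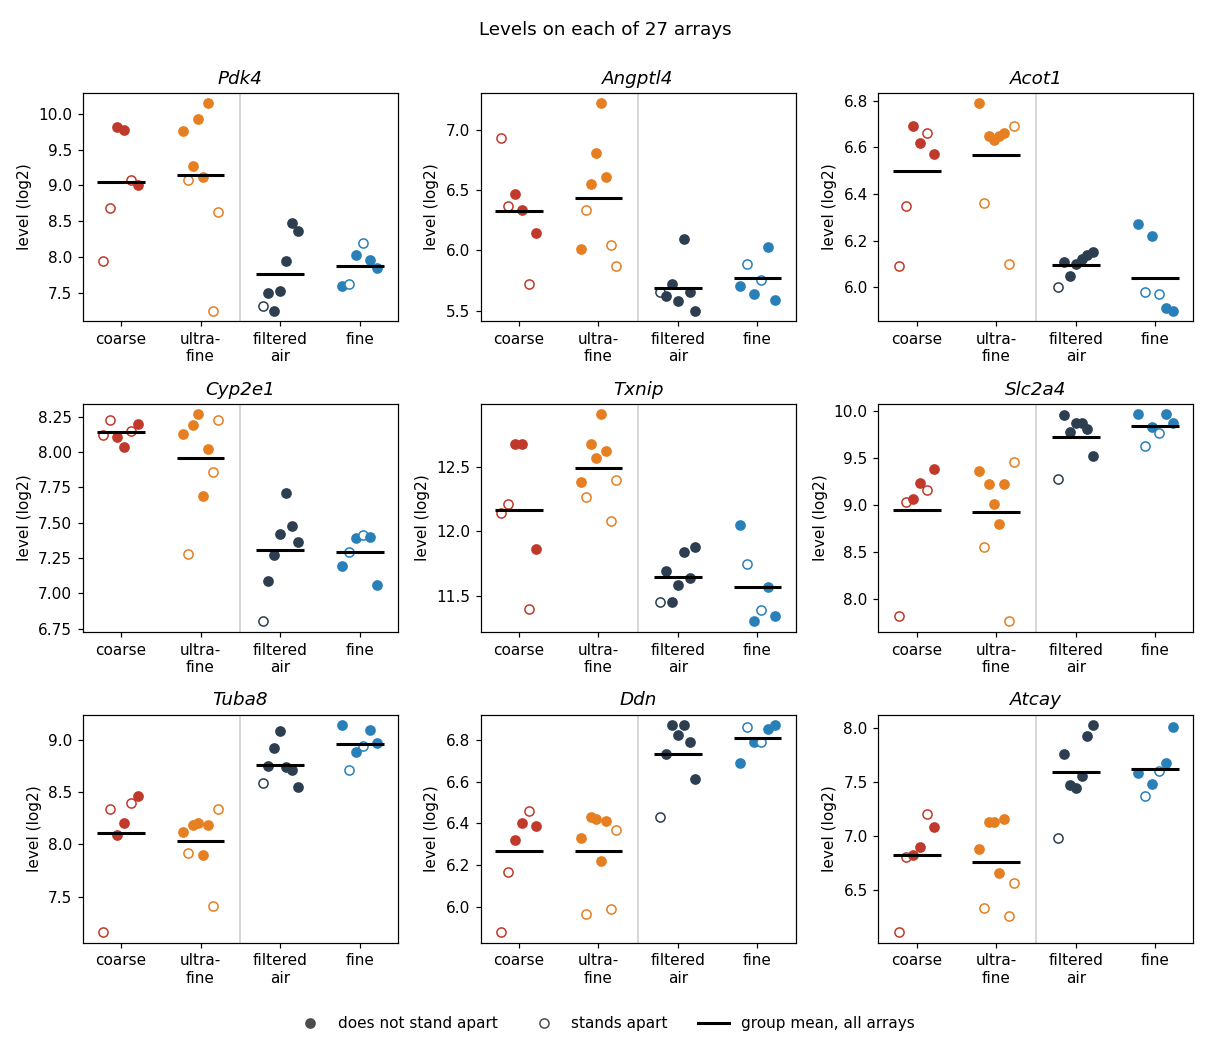
Log2 level of 9 genes on each of the 27 arrays, by group, with coarse and ultrafine left of the grey line and filtered air and fine right of it; filled circles are the 18 arrays that do not stand apart, open circles the 9 that do, and bars the group means over all arrays. Pdk4 lies at 9.01 or more on all 8 filled coarse and ultrafine circles and at 8.48 or less on every filtered air and fine circle.

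The glucose transporter gene Slc2a4 was lower. It was at 9.07, 9.24 and 9.38 in coarse and 9.36, 9.22, 9.01, 8.80 and 9.23 in ultrafine hearts, against 9.97, 9.83, 9.97 and 9.88 in fine hearts and 9.52 to 9.96 (median 9.84) in filtered air hearts. No exposed value reached the others, and the difference was -0.68 ± 0.07, a 1.60-fold lower level. With 27 arrays the difference was -0.84 ± 0.15, with coarse 1 at 7.82 and ultrafine 7 at 7.76. Hk2, the insulin-responsive hexokinase of muscle, was lower by 0.39 ± 0.09 on the 18 arrays and by 0.43 ± 0.10 with 27, where its call held in only 4 of 27 fits that left out 1 array. Of 17 measured genes of glucose uptake and glycolysis, 0 were called higher and 2 lower on the 18 arrays (median -0.06), and 0 higher and 3 lower with 27 (median -0.24). The third was Pgam2, the muscle phosphoglycerate mutase, with -0.64 ± 0.14, and on the 18 arrays it differed by -0.38 ± 0.10 and was not called. The glycolytic enzymes in between, such as Gpi (-0.06), Aldoa (-0.07) and Pgk1 (-0.02), were not called on the 18 arrays.

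Txnip, which restrains glucose uptake and binds thioredoxin, was higher by 0.91 ± 0.12 on the 18 arrays and by 0.74 ± 0.12 with 27. Its median was 12.65 with coarse and ultrafine particles against 11.61 with filtered air and fine particles, and fine 1 at 12.05 lay above coarse 6 at 11.86. Of the 3 measured genes of its list, the other two, Arrdc1 and Mlx, differed by 0.01 and 0.02. Among 13 glucocorticoid-responsive genes, 2 were called higher and 0 lower on the 18 arrays and 3 higher and 0 lower with 27, with medians of 0.23 and 0.24. The called ones were Pdk4 and Angptl4, and with 27 arrays also Ddit4, an inhibitor of the growth kinase mTORC1, at 0.52 ± 0.12. The receptor's classical targets Tsc22d3 (0.19) and Per1 (0.31) were not called. On the 18 arrays the 11 members not called ran between -0.20, for Mt1, and 0.62, for Sult1a1, with Ddit4 at 0.505. When coarse 6 and ultrafine 5 were left out too, Sult1a1 (0.745 ± 0.161) and Ddit4 (0.593 ± 0.14) were called higher. Of the 13 differences, 10 were above 0 and 3 below on the 18 arrays, and 8 above and 5 below with 27. Of 11 clock genes, Bhlhe40, a repressor in the clock circuit, was called lower by 0.35 ± 0.08 on the 18 arrays, and the other 10 ran between -0.14 and 0.31 with none called in either set. Of 21 insulin and FOXO-responsive genes, Cited2 alone was called on the 18 arrays, higher by 0.34.

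**Figure D3:**
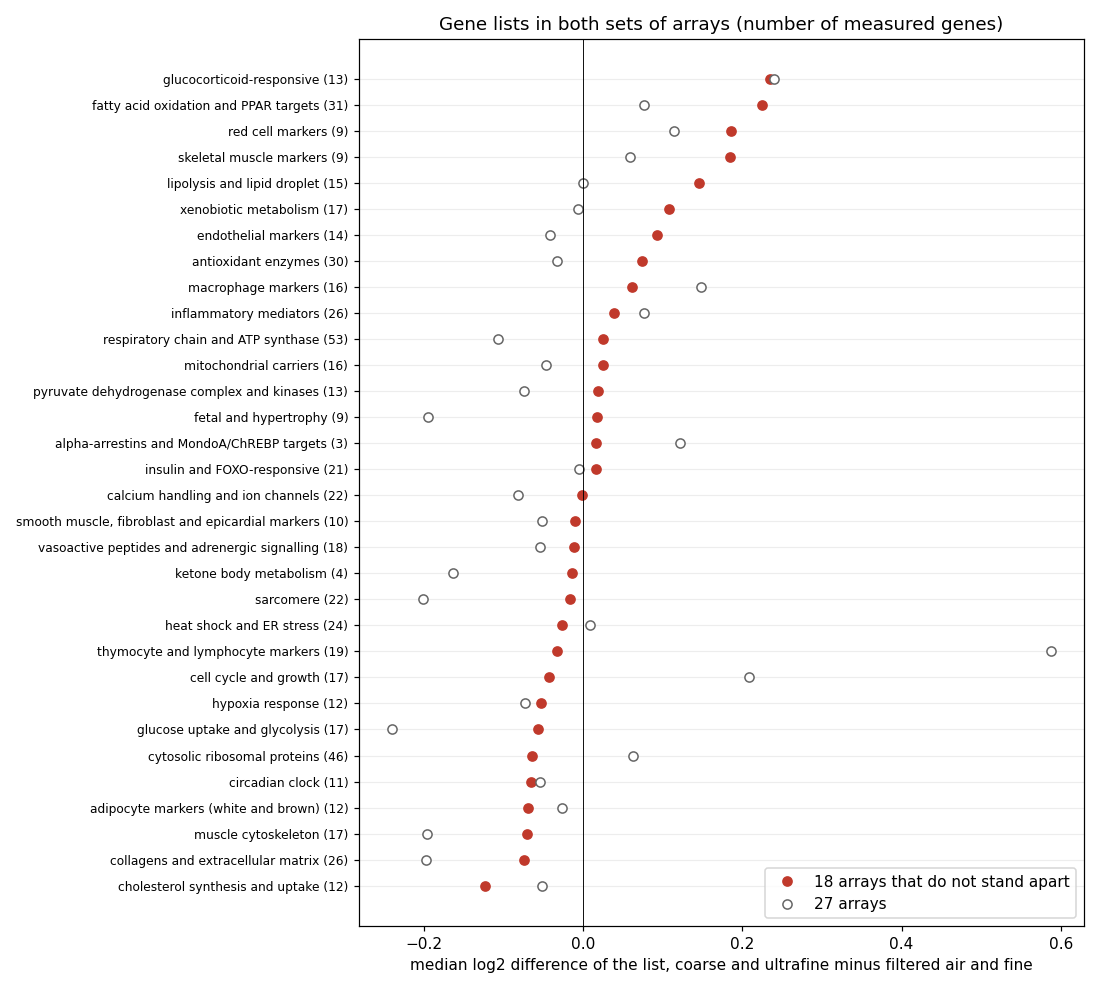
Median log2 difference, coarse and ultrafine minus filtered air and fine, of the measured genes of each of 32 lists, on the 18 arrays that do not stand apart (filled) and on all 27 arrays (open). Fatty acid oxidation sits at 0.22 on the 18 arrays and 0.08 on all 27, and the thymocyte and lymphocyte list at -0.03 and 0.59.

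Genes of the muscle cytoskeleton were among those that were lower. Of 17 measured genes of that list 0 were called higher and 6 lower on the 18 arrays, and 0 higher and 5 lower with 27. This list was drawn up to hold genes that earlier results had shown to be lower, so its counts are a description alone. Its called members include Atcay and Ddn, which are known from other cells, as given below. On the 18 arrays the 11 members not called ran between -0.20 and 0.13, and the list median was -0.07. Tuba8, an alpha-tubulin, did not overlap between the pools even with all 27 arrays, at 7.16 to 8.46 (median 8.19) with coarse and ultrafine particles and 8.55 to 9.14 (median 8.88) with filtered air and fine particles. Over all probes, 3 did not overlap with 27 arrays (0.0257%) and 38 did not on the 18 (0.326%). The Tuba8 difference was -0.79 ± 0.11 with 27 arrays and -0.72 ± 0.08 on the 18. Tuba4a, another alpha-tubulin of muscle and brain, was lower by 0.59 ± 0.08 on the 18 arrays, and its difference of -0.88 ± 0.23 with 27 was not called, with ultrafine 8, which stands apart, at 8.13.

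Atcay encodes caytaxin, a protein known mainly from neurons. It was at 6.83, 6.90 and 7.09 in coarse and 6.88, 7.13, 7.13, 6.66 and 7.16 in ultrafine hearts, against 7.59, 7.48, 7.68 and 8.01 in fine hearts and 7.45 to 8.03 (median 7.66) in filtered air hearts. The groups did not overlap, and the difference was -0.72 ± 0.09. Ddn, encoding dendrin of kidney podocytes and neurons, spanned 6.22 to 6.43 with coarse and ultrafine particles and 6.61 to 6.87 with filtered air and fine particles on the 18 arrays. Its difference was -0.42 ± 0.04 there and -0.50 ± 0.06 with 27 arrays. Fbxl22, an F-box protein of the sarcomeric Z disc, was lower by 0.68 ± 0.09, and Lmod3, which nucleates thin filaments, by 0.42 ± 0.05, both with no overlap on the 18 arrays and both called with 27. Acta1, skeletal alpha-actin, was called with 27 arrays at -0.87 ± 0.19 and not on the 18 at -0.73 ± 0.21, where coarse and ultrafine hearts spanned 10.26 to 12.09 and filtered air and fine hearts 10.99 to 11.97. The 12.09 came from coarse 6, which also held skeletal muscle transcripts: its mean of 9 skeletal muscle markers was 9.55, against 7.44 to 7.64 over the filtered air and fine arrays. Ultrafine 5, with the next highest Acta1 level of the 8 exposed hearts (11.60), had a skeletal muscle mean of 8.17 and the highest mean of 9 red cell markers, 9.87 against 8.55 to 8.96 in the filtered air and fine hearts of the 18. Without both arrays the Acta1 difference was -1.04 ± 0.15 and was called. The list of 22 sarcomere genes as a whole had a median of -0.02 on the 18 arrays, with Lmod3 alone called, and of -0.20 with 27.

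Among ion channels, Kcnip2, a subunit of the transient outward potassium current, was lower by 0.44 ± 0.09 on the 18 arrays, at 9.82 against 10.17 (medians), with no overlap. Kcnq1, the pore of a slow repolarising potassium current, was lower by 0.25 ± 0.05, and by 0.19 ± 0.05 and not called when coarse 6 and ultrafine 5 were left out too. They were the 2 called of 22 genes of calcium handling and ion channels on the 18 arrays, beside 1.32% of all genes. Perm1, a muscle regulator of mitochondrial genes that is induced by PGC-1, was lower by 0.37 ± 0.07, with no overlap on the 18 arrays. None of 53 genes of the respiratory chain and ATP synthase was called in either set, and 33 of them were above 0 on the 18 arrays but 5 with 27, where sarcomere means also differed, and the part of that was not tested. Slc25a29, which carries basic amino acids into mitochondria, was lower by 0.56 ± 0.05, and Ccnd1, the G1 cyclin D1, by 0.57 ± 0.10. Apln, the vasoactive peptide apelin, was lower by 0.39 ± 0.06, at 6.94 against 7.36 (medians), with no overlap, and Esm1, an endothelial proteoglycan, by 0.51 ± 0.11. Wfdc1, a secreted protease-inhibitor-like protein, was lower by 0.42 ± 0.09, and Higd1a, a hypoxia-inducible mitochondrial protein, by 0.45 ± 0.06.

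Rbp7, which binds retinol in endothelial and fat cells, was second to Pdk4 on the 18 arrays, at 8.75, 8.72 and 8.32 in coarse and 8.43, 8.80, 8.47, 8.54 and 8.76 in ultrafine hearts, against 6.86, 7.65, 7.58 and 7.38 in fine hearts and 7.41 to 7.83 (median 7.60) in filtered air hearts. Its difference was 1.09 ± 0.10, a 2.13-fold higher level with no overlap, but 0.63 ± 0.23 and not called with 27, where ultrafine 8 was at 6.04 and ultrafine 7 at 6.75. Penk, the precursor of enkephalin peptides, was higher by 0.90 ± 0.12 on the 18 arrays, and Colq, the collagen tail that anchors acetylcholinesterase, by 0.59 ± 0.08. Rnase1, a secreted ribonuclease made by endothelium, did not overlap with all 27 arrays, although coarse 1 and fine 1 both round to 6.24, and its difference was 0.40 ± 0.05. Of 14 endothelial markers, 3 were called higher on the 18 arrays, beside 1.32% of all genes. These were Rbp7, Gpihbp1 and the junction gene Esam (0.29), and 11 of the 14 were above 0 with a median of 0.09. Their mean was 7.89 to 8.12 in coarse and ultrafine hearts and 7.69 to 7.80 in filtered air and fine hearts of the 18 arrays, with no overlap. With 27 arrays it was 6.91 to 8.12 in the exposed pool and 7.45 to 7.80 in the other, 6 of 14 markers were above 0 and the median was -0.04. Of the 11 markers not called on the 18 arrays, differences ran between -0.09 for Flt1, a receptor of the growth factor VEGF, and 0.45 for Cldn5, a tight junction protein. Rbp7 and Gpihbp1 are themselves part of this mean, so it is no separate measure beside them. Cd36 and Rnase1 were higher on the same exposed arrays of the 18, and the part of the endothelial mean in them was not tested.

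Cyp2e1, a cytochrome P450 that oxidises ethanol and small solvents, was higher by 0.74 in both sets, with standard errors of 0.08 on the 18 arrays and 0.09 with 27. It spanned 7.28 to 8.27 (median 8.13) with coarse and ultrafine particles and 6.80 to 7.71 (median 7.36) with filtered air and fine particles over the 27 arrays, with ultrafine 2 and ultrafine 5, at 7.28 and 7.69, inside the range of the other pool. Of 17 genes of xenobiotic metabolism 3 were called higher and 1 lower on the 18 arrays, beside 1.32% of all genes. The others were the carbonyl reductase gene Cbr1 (0.47) and the epoxide hydrolase gene Ephx2 (0.34), both higher, and the electron donor gene Cyb5a (-0.28). Of 30 antioxidant genes 3 were called higher and 0 lower on the 18 arrays and 0 with 27: Hmox1, haem oxygenase 1 (0.32), the glutaredoxin gene Glrx (0.27) and Ucp3, already counted among the genes of fat use. Nqo1, a classical target of the stress factor NRF2, differed by -0.16 and was not called. Sat1, which starts polyamine breakdown, was higher by 0.39 ± 0.09, Klf10, a TGF-beta-inducible repressor, by 0.45 ± 0.10, and Epb41, a membrane skeleton protein, by 0.41 ± 0.07. Slc3a2, the heavy chain of amino acid transporters, was higher by 0.27 ± 0.05. Of 16 macrophage markers Cd163, a scavenger receptor for haemoglobin, was called in both sets, at 6.51 against 6.24 (medians of the 18 arrays), and 0 of 26 inflammatory mediators were called in either.

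**Figure D4:**
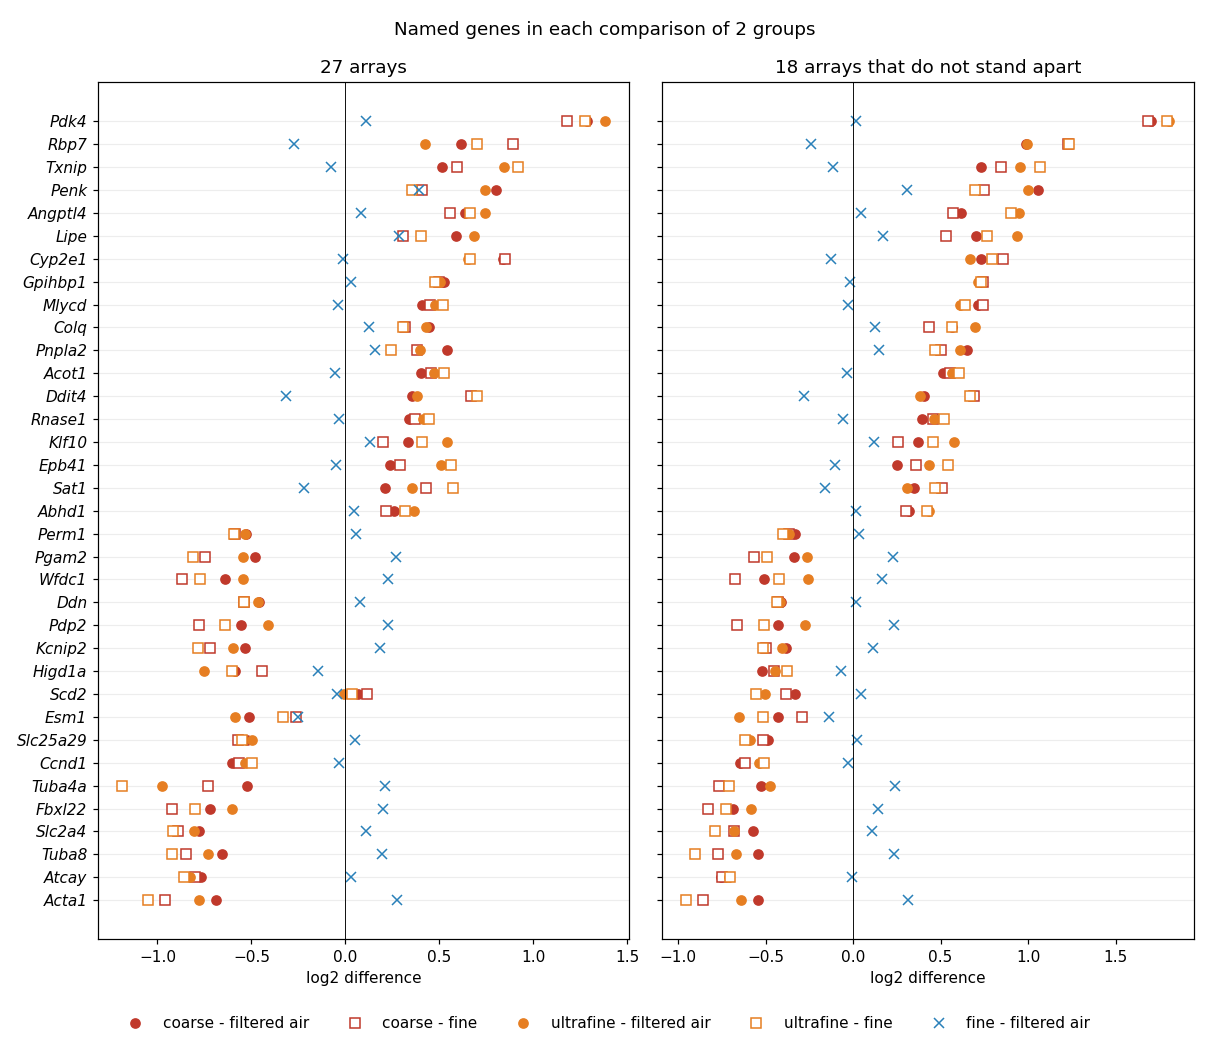
Log2 difference of each named gene in the 4 comparisons across the pools (circles and squares) and in fine minus filtered air (crosses), with all 27 arrays at left and the 18 that do not stand apart at right. For Pdk4 on the 18 arrays the 4 values lie at 1.69 to 1.81 and the cross at 0.02; for Scd2 the values with 27 arrays lie near 0 and those on the 18 arrays below it.

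The genes named as higher or lower were required to have the same sign in the 4 single comparisons, so only their sizes are described. On the 18 arrays Pdk4 was higher by 1.70 for coarse minus filtered air, 1.69 for coarse minus fine, 1.81 for ultrafine minus filtered air and 1.79 for ultrafine minus fine. Slc2a4 had -0.57, -0.68, -0.68 and -0.79 in the same order, and Cyp2e1 had 0.73, 0.86, 0.67 and 0.79. Some genes leaned to 1 size: Ucp3 had 0.17 and 0.21 with coarse particles but 0.59 and 0.63 with ultrafine ones, and Cpt1a had 0.25 and 0.26 with coarse and 0.60 and 0.61 with ultrafine particles. All 131 probes called on the 18 arrays had the same sign in all 4, as 3996 of all 11657 probes did. A call between the pools makes 1 sign likely, so nothing is read from the 131.

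Coarse and ultrafine hearts could be compared directly, and so could fine and filtered air hearts. Limma called 0 probes in coarse minus ultrafine with 27 arrays (0.0%), where 299 probes had an unadjusted p under 0.05 and the smallest adjusted p was 0.999. It called 0 in fine minus filtered air (0.0%), where 697 had an unadjusted p under 0.05 and the smallest adjusted p was 0.405. With a mean-variance trend and robust fitting limma also called 0 in each, and with array weights it called 0 in coarse minus ultrafine and 19 in fine minus filtered air. Without the arrays that stand apart the counts were 0 in each, with 614 and 1113 probes at an unadjusted p under 0.05 and smallest adjusted p-values of 0.832 and 0.278. The pools were formed because these groups had looked alike, so the lack of calls is not independent of that choice.

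The intervals say how large a difference could remain. For Pdk4 on the 18 arrays, coarse minus ultrafine was -0.11 (95% interval -0.69 to 0.48, limma adjusted p = 0.942) and fine minus filtered air was 0.02 (-0.50 to 0.53, limma adjusted p = 0.99), against a difference between pools of 1.76. For Slc2a4 they were 0.11 (-0.13 to 0.34) and 0.11 (-0.10 to 0.31). For Ddn they were 0.01 (-0.13 to 0.15) and 0.02 (-0.11 to 0.14). The interval left out 0 for coarse minus ultrafine in Ucp3, at -0.42 (-0.64 to -0.20), and in Cpt1a, at -0.35 (-0.61 to -0.09), but both had a limma adjusted p of 0.832. In fine minus filtered air it left out 0 for Tuba8, at 0.23 (0.03 to 0.43, limma adjusted p = 0.485), and Tuba4a, at 0.24 (0.04 to 0.44, limma adjusted p = 0.468). For both genes the means of the coarse and ultrafine hearts lay below those of either group of the other pool. A p above the threshold does not show that the groups were alike.

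The 4 comparisons across the pools form pairs that share no array, which lets the pattern be set against itself over all probes. On the 18 arrays, fitted alone, coarse minus filtered air and ultrafine minus fine had a Pearson correlation of 0.226 over 11657 probes, and 53.67% of probes had the same sign. Of the 50 probes with the smallest p in coarse minus filtered air, 46 had the same sign in ultrafine minus fine, and of the 50 in ultrafine minus fine 44 had it in coarse minus filtered air. For coarse minus fine and ultrafine minus filtered air the correlation was 0.154 with 48.49% of the same sign, and 41 and 49 of the 50 leading probes matched. Within the pools, coarse minus ultrafine and fine minus filtered air had a correlation of -0.083, 45.4% of the same sign, and 24 and 33 of 50. The likeness on the 18 arrays thus lay in the leading probes and hardly in the bulk. With all 27 arrays, where those that stand apart enter each side, coarse minus filtered air and ultrafine minus fine had a correlation of 0.35, with 30 and 32 of the 50 leading probes matched, and coarse minus fine and ultrafine minus filtered air had 0.521, with 47 and 47. The comparison within the pools had 0.219, with 37 and 42 of 50, more matches than the first of these pairs. Genes measured in the same hearts are not independent, so these are descriptions, and the pools were chosen with the pattern in view.

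**Figure D5:**
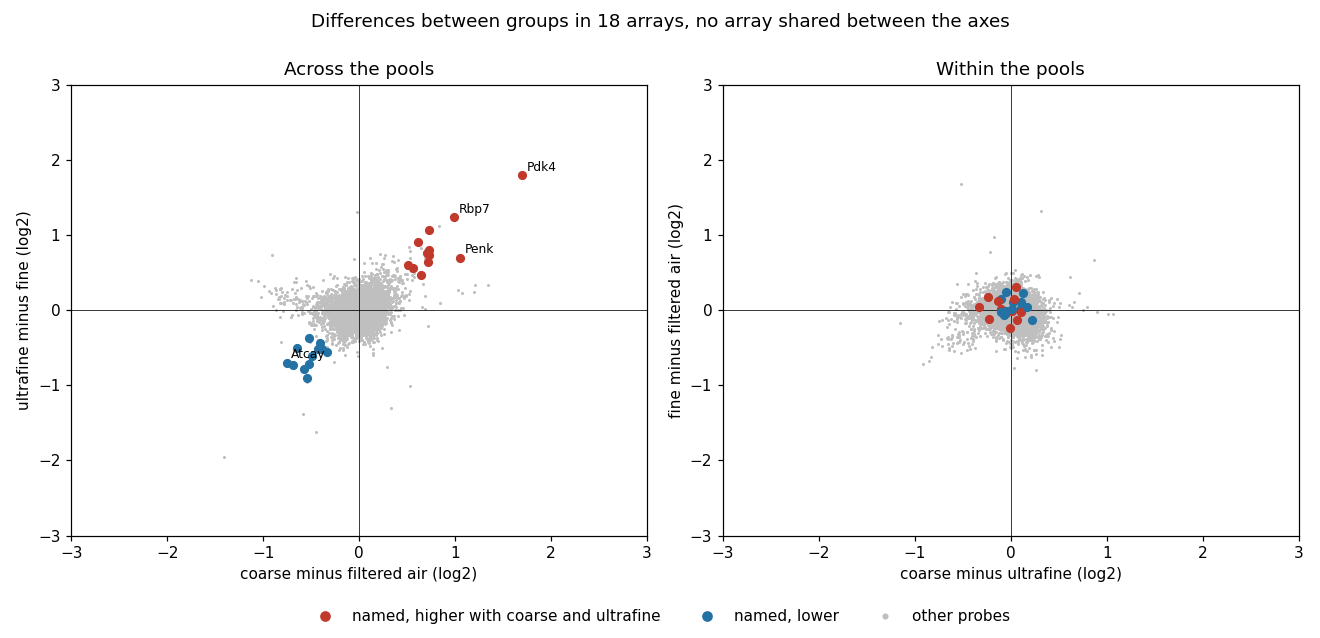
Log2 difference of each kept probe on the 18 arrays in 2 comparisons that share no array, across the pools at left (coarse minus filtered air and ultrafine minus fine) and within the pools at right (coarse minus ultrafine and fine minus filtered air). The named genes (12 higher in red, 12 lower in blue) lie along the diagonal at left and around 0 at right, while the other probes form a round cloud in both. The named genes were chosen for a call between the pools on these arrays and for the same sign in every comparison across the pools. Their shared sign at left follows from that choice. A call also favours genes with a small spread within the pools, so nothing is read from their place in either panel.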

How the data were processed

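Heart RNA levels of 27 rats were taken from the deposited value table as the authors made it: log2-like values per probe, preprocessed with lumi 1.5.17 per the submitters' processing notes and with lumi's defaults per the series' design text. The kind of transform, log2 alone or variance-stabilizing, is not given in the sources used here, so each log2 difference is on the scale of the table, which ran between 5.12 and 14.17. Once sorted, the values of each array came within 0.0185 of those of filtered air 1, as after quantile normalization. Bead counts and background signals were not used here, and precision is set by how many arrays each pool holds. All 27 value columns matched a sample, and 0 did not.

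Of 22226 probes, 13192 had 1 gene symbol, 0 several and 9034 none. Symbols were updated by gene ID against RefSeq (GRCr8), where 13151 matched and 41 did not. The authors kept 11657 probes, and the same number with the highest mean was kept here (lowest mean 5.789). They stood for 7952 named genes.

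The pools of 14 and 13 arrays were fitted with lmFit and eBayes of limma 3.58.1 (R 4.3.3), with no covariate. Single comparisons came from 1 model of 4 groups, tests were two-sided and p-values were adjusted by Benjamini-Hochberg over all kept probes. The fit was tested on simulated data. The members, pools, named-gene rule and 32 gene lists were chosen with earlier results of these data known. Named were, by 1 probe per gene with the smallest pooled p, the 12 highest and 12 lowest called genes with 1 sign in all 4 single comparisons, in the 27 and in the 18 arrays, up to 4 members of each list, and called genes of the 2 comparisons inside the pools. Further called or well-known list members were named after their values were seen. Alternatives changed the probe filter, normalization, probe per gene, variance fit, array weights, replicate block, covariates and arrays. P-values weigh a difference between groups against the spread between these arrays within the groups or pools fitted, which eBayes moderates across probes.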

Additional observations from a re-analysis of the deposited data

Results flagged for a closer look

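For each of the 35 leading genes and each group, the highest or lowest array was set against its neighbours by Dixon's rule. Of 140 gene and group pairs 23 had an array far from the others, where chance gives about 1 in 20. Most lay on 3 arrays that already stood apart by their correlation with the rest, 2 of which also had high thymocyte and low sarcomere means.

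On coarse 1, 10 genes lay far below the other coarse arrays: Slc2a4 (7.82), Atcay (6.11), Tuba8 (7.16), Wfdc1 (7.91), Kcnip2 (8.67), Pgam2 (8.90), Perm1 (9.67), Penk (8.84), Lipe (7.51) and Pnpla2 (8.52). On ultrafine 7 the same was seen for Tuba8 (7.41), Kcnip2 (8.28), Perm1 (9.59), Penk (9.06) and Pnpla2 (7.91). Penk, Lipe and Pnpla2 were higher with coarse and ultrafine particles on the 18 arrays, while the others were lower. Penk on both arrays and Pnpla2 on ultrafine 7 lay below every filtered air and fine array (lowest 9.14 and 8.31), and the other values of Lipe and Pnpla2 lay within their range. On ultrafine 8, Tuba4a (8.13, next 10.41) and Higd1a (6.46, next 8.44) were far below the other ultrafine arrays and Slc25a29 (7.73, next 6.90) was above them. The thymocyte means, sarcomere means and correlations of these arrays move with these values, and their part was not tested.

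Among filtered air and fine arrays, Angptl4 (6.09, next 5.72), Lipe (8.09, next 7.45) and Esm1 (7.31, next 6.80) were highest on filtered air 5, Scd2 (9.22, next 8.32) on filtered air 1 and Tuba4a (12.15, next 11.93) on fine 1. Filtered air 5 was thus nearest to the exposed hearts in Angptl4 and Lipe, yet its Pdk4 level of 7.94 lay within the range of its group.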

How the results depend on the processing

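With all 27 arrays and no covariate the pools differed in 52 probes. The count was within 1.5 times of that with no probe filter (38), the brighter probes (39), arrays centred on their medians (52), cyclic loess (74), 1 probe per gene (45), robust fitting with a trended variance (39), the adipocyte mean as covariate (56) and equal weight for each of 4 groups (43). It was 278 with array weights, 114 with the replicate block, 131 without the 9 arrays that stand apart, 83 without the 8 high in thymocyte genes, 95 with the thymocyte mean as covariate and 161, chosen after seeing the data, when coarse 5 and fine 4 were kept beside the 18; the cause was not tested. Fitted alone, with fewer arrays, coarse minus filtered air gave 0, ultrafine minus fine 5, coarse minus fine 2 and ultrafine minus filtered air 1. Leaving out 1 array gave 30 to 82. Past 1.5 times were 30 without filtered air 3 or ultrafine 2, 31 without fine 6, 32 without coarse 4 or fine 1, 33 without fine 3 or fine 4, and 82 without ultrafine 8. On the 18 arrays the 131 became 104 (without coarse 3) to 243 (without ultrafine 5), and 273 without ultrafine 5 and coarse 6, chosen after seeing the data. Coarse minus ultrafine stayed at 0 calls in every setting run and fine minus filtered air in all but array weights, which called 19. Same-numbered arrays of different groups correlated at a median of 0.341 (range -0.717 to 0.873) and other-numbered ones at 0.008 (-0.828 to 0.923). Of the 27 arrays, 6 correlated best with their own number. Since not every same-numbered pair was above 0.1, the numbers were not taken to pair arrays. A looser grouping by number could fail that rule, and what the numbers stand for is not given in the labels. Scd2 reversed, to -0.46 without the arrays that stand apart, against 0.04 with them, and so did Cd36, to 0.39 against -0.10; Pdk1, Acat1, Gata4, Ckm, Nos3 and Krt8 changed sign in some setting with no call. Pdk4, Cyp2e1, Txnip, Slc2a4, Tuba8, Atcay, Fbxl22, Ccnd1, Slc25a29, Lmod3, Apln, Wfdc1, Epb41, Abhd1, Angptl4, Acot1, Rnase1, Ddn, Pdp2, Slc3a2 and Cd163 kept their call whichever array was left out, while the call held in only 4 of 27 such fits for Hk2, 6 for Sat1 and Kcnip2, 7 for Gpihbp1, 8 for Ddit4, 9 for Perm1, 12 for Klf10, 18 for Acta1 and 19 for Pgam2.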

Other observations

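The desaturase genes varied widely inside the pools. Scd, the stearoyl-CoA desaturase of liver and fat, spanned 5.81 to 9.83 in coarse and ultrafine hearts and 6.13 to 11.37 in filtered air and fine hearts, and was not called. Scd2, its relative, was lower by 0.46 ± 0.10 on the 18 arrays, at 7.55 against 8.00 (medians), and differed by 0.04 ± 0.26 with 27, where coarse 1, ultrafine 2 and ultrafine 7 held 9.82, 9.53 and 9.98. Ucp1, the uncoupling protein of brown fat, spanned 5.54 to 10.17 in coarse and ultrafine hearts and 5.82 to 11.30 in filtered air and fine hearts on the 18 arrays.

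Within a pool, Pdk4 was not seen to move with its companions. Over the 8 exposed and the 10 other arrays of the 18, its Pearson correlation with Angptl4, Txnip, Slc2a4, Cyp2e1 and Lipe was computed, 10 relations in all. The strongest was with Slc2a4 over the 10 filtered air and fine arrays, at r = -0.478 (permutation p = 0.175, Benjamini-Hochberg adjusted p = 0.966) and Spearman rho = -0.347 (permutation p = 0.322, adjusted p = 0.970). Without the 2 arrays farthest from the median Pdk4 level, r was -0.776. With 8 to 10 arrays a moderate relation would not be detectable.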
